A study of Mus musculus with 70 samples.

Results

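The cerebellar nuclei (CBN, 3 libraries) were compared with 3 hindbrain regions, the nucleus of the solitary tract (NTS, 4 libraries), the dorsal vagal complex (DVC, 3) and the parabrachial nucleus (PB, 3). The libraries were chosen by their region labels, 13 of the 70 in the study, and the 3 reference regions were given equal weight. All came from male mice at postnatal day 56, C57BL/6 by their labels and C57BL/6NTac in the paper, with no treatment; tissue punched from frozen sections of several mice was pooled for each library, so the spread given here is between pools. Sequencing gave reads from 1 end of stranded mRNA fragments, with 14746313 to 19999209 estimated counts per library (median 16730782). Levels are the authors' TPM (transcript abundance scaled to a fixed total within a library) for each gene. The study used fewer adult mice than adult libraries and pooled several for each, so libraries share animals, whereas each test treats the libraries as independent. Samples were collected and prepared in batches. The study's sample table gives batches by region without replicate numbers, and libraries were assigned to them after the data had been seen, from runs of sample numbers in the labels whose regions fit 1 batch each. The line of that table read as CBN in batch 1 has an unclear region in the copy used, and the place of CBN replicate 1, every value of batch 1 and the fit with batch as a term lean on that reading. By this inference batch 1 holds CBN replicate 1, NTS replicate 1 and PB replicate 1, batch 3 holds CBN replicate 2, NTS replicate 3 and DVC replicate 3, and batch 4 holds CBN replicate 3, NTS replicate 4, DVC replicate 1 and PB replicate 3. The other 3 libraries form batch 2, which has no CBN library.

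The cerebellar nuclei are the output of the cerebellum. Purkinje cells of the cortex inhibit them through GABA, collaterals of mossy and climbing fibres excite them, and their large glutamatergic neurons project to the thalamus, red nucleus and brainstem beside GABAergic neurons that reach the inferior olive and glycinergic neurons that stay local or reach the cortex. The NTS receives visceral afferents, the DVC adds the area postrema and the motor nucleus of the vagus, and the PB relays visceral signals to the forebrain. All 3 reference regions take part in the control of feeding and energy balance, whereas the cerebellar nuclei are not usually placed among the regions that do.

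Markers were read first as a check of the labels. Spp1, which encodes osteopontin and is strong in large projection neurons, stood at 405, 421 and 393 TPM in the CBN libraries and at 67.1 to 320.4 (median 143) TPM in the 10 reference libraries. Gad1, which makes GABA, was at 291, 293 and 291 TPM against 155 to 262 (median 203). Slc17a6, the vesicular glutamate transporter of brainstem and nuclear neurons, was at 112, 94.2 and 96.7 TPM, below the reference range of 114 to 178 (median 136). Slc6a5, also among the markers of nuclear neurons, had a log2 difference of -0.66 and is given with the glycine genes. Nefh, the heavy neurofilament of large axons, lay at 557, 566 and 524 TPM in CBN and overlapped the reference range of 278 to 615 (median 403). Lmx1a, a factor of the nuclear lineage, was at 5.17, 3.62 and 3.75 TPM against 0 to 3.66 (median 0.304), with overlap. It was called higher in CBN (log2 difference 1.94 ± 0.44 (SE), limma adjusted p = 0.0056). NTS replicate 1, which was high in choroid plexus markers, had 2.33 TPM of Lmx1a, against 0, 0.336 and 0.0570 in the other NTS libraries. The CBN libraries ranked as they did in the choroid plexus sum. Which cells gave the Lmx1a signal was not tested. Tbr1, which marks the medial nucleus, stayed under 1 TPM in all 3 libraries (0.799, 0.924 and 0.985 TPM), too low to be tested. Meis2 was lower in CBN, at 116, 86.0 and 71.8 TPM against 163 to 208 (median 194) (-1.08), or by -0.92 without CBN replicate 3, -0.81 by edgeR and -0.82 by DESeq2, under the fold threshold. Its limma call was also lost with all 57 adult libraries in the fit (-1.08, adjusted p = 0.167).

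Marker sums of granule and Purkinje cells were higher in the CBN libraries than in the reference, those of the choroid plexus higher than in 9 of the 10 reference libraries, and the CBN libraries differed among themselves. The 12 granule cell markers, led by Cbln1 in CBN and in the reference by Rasgrf1, itself lower in CBN (log2 difference -0.71), summed to 748, 920.3 and 1132 TPM in CBN, 431 to 552 (median 500.4) in the reference libraries and 2306 to 5518 in 15 libraries of cerebellar lobules from the same study. The 14 Purkinje cell markers, led by Pcp4, which was not called (0.17), summed to 1347, 1406 and 1963 TPM in CBN, 601 to 999.6 (median 701) in the reference and 3642 to 10292 in the lobules. The CBN libraries thus stood between the hindbrain and the cortex for both lists. The 11 choroid plexus and ependymal markers, led by Ttr, summed to 13075, 3619 and 5593 TPM in CBN. NTS replicate 1 reached 10875 TPM for this list, while the other 9 reference libraries stayed between 31.1 and 355. None of the defining markers of these 3 cell types was at 0 in a CBN library.

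CBN replicate 1 stood apart in other lists. Its 39 Hox genes summed to 70.5 TPM, against 15.7 and 9.78 in the other CBN libraries, 87.2 to 123 in NTS, 318 to 414 in DVC and 2.77 to 3.57 in PB. Its 7 catecholamine genes summed to 21.5 TPM, against 315 and 160.5 in replicates 2 and 3, beside 279 to 488 in PB. The 18 myelin genes, led by Mbp, summed to 14179, 22726 and 21685 TPM in CBN, against 12742 to 18722 (median 13591). Whether tissue beside the nuclei was in the punches was not tested, and fewer cells of a type and less RNA per cell cannot be told apart in bulk tissue.

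**Figure D1:**
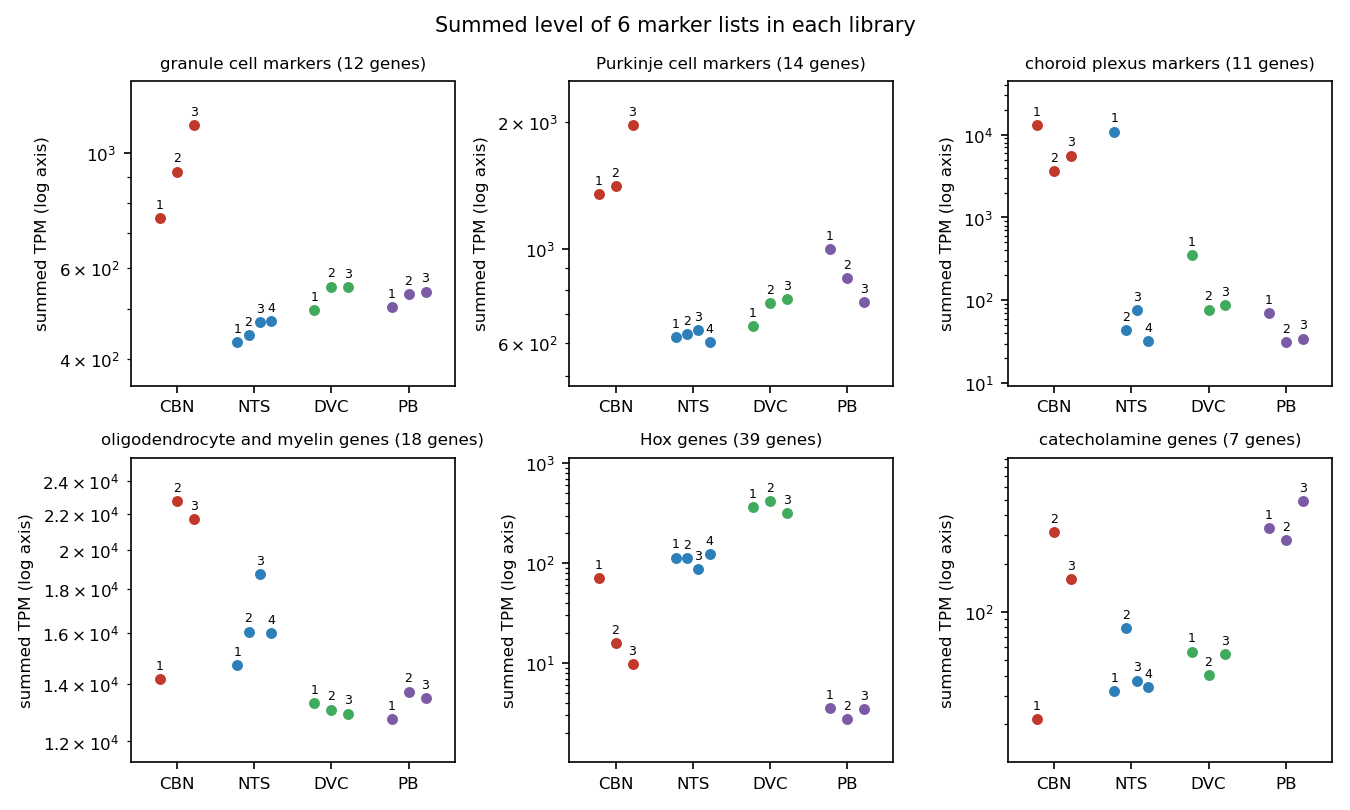
Summed TPM of 6 marker lists on log axes, with 1 point per library, numbered by replicate and grouped by region. Granule and Purkinje cell markers are higher in all 3 CBN libraries than in any reference library, choroid plexus markers are high in CBN and in NTS replicate 1, and CBN replicate 1 differs from the other CBN libraries in its Hox and catecholamine sums.

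Of 16186 genes tested, 407 were higher in CBN (2.51%) and 437 lower (2.70%). Of all called genes Ttr of the choroid plexus had the largest difference (9.27, with CBN and reference overlapping) and Rps12-ps3 the smallest (-6.06). A gene was tested when it had at least 1 TPM in at least 3 of the 13 libraries. It was called at a limma adjusted p under 0.05 with an absolute log2 difference above 1. A gene seen only in the reference passed this filter with 3 of 10 libraries, whereas one seen only in CBN needed all 3. The filter thus favours lower genes in lists with many low members, such as the receptor, neuropeptide and Hox lists. Differences are on the scale of log2(TPM + 0.5), which understates those of low genes, and the median over all genes was -0.07. At an unadjusted limma p under 0.05, with no fold threshold, 7026 of the 16186 genes passed. Counts and medians of the gene lists below are to be read beside these values over all genes. Every CBN library lay above all 10 reference libraries for 689 genes (4.26%) and below all of them for 1919 (11.9%). Without CBN replicate 1 or 2, 1204 or 1243 genes lay above, and scaling by the median ratio gave 990 above and 1484 below (40.0% above in place of 26.4%). Among the called genes, 157 of the 407 higher and 287 of the 437 lower ones were separated in this way. With edgeR on the summed counts, 721 genes were higher and 462 lower, so that the higher share of the calls was 60.9% in place of 48.2%. DESeq2 gave 741 and 486 (60.4%). Without CBN replicate 1 the higher genes numbered 262, without CBN replicate 3 they numbered 256, and with at least 5 TPM required in 3 libraries 230.

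The same differences were taken within each batch that has a CBN library, as CBN minus the mean of the reference libraries of that batch. Of the 407 higher genes, 407, 403 and 407 were above in batches 1, 3 and 4 (403 in all 3), and of the 437 lower ones 421, 422 and 435 were below (404 in all 3), beside 21.5% and 33.4% of all genes tested in all 3. These are the libraries that gave the calls, so the values are no independent test. Batch 1 has no DVC library and batch 3 no PB library. Of the genes called and named below, Slc6a4, Tph2, Gabrq and Pax5 were above in batch 3 (0.32, 0.29, 0.55 and 1.40), and Hoxc4, Hoxc5, Hoxb5, Hoxb4 and Glp1r in batch 1 (1.14, 1.29, 1.88, 1.16 and 0.02), against lower values over all libraries. With batch as a term in the fit, 390 genes were higher and 445 lower, of which 351 and 407 were also called without it. The named calls lost were those of Pax5 (-1.40, adjusted p = 0.0911), Gbx2 (-1.04, 0.0518), Col1a1 (0.97) and Egr1 (-0.99).

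Each reference region was also set against CBN alone in the same fit; these 3 comparisons share the CBN libraries. Against NTS, 404 genes were called (2.50%), 204 higher and 200 lower in CBN. Against DVC, 760 were called (4.70%), 317 higher and 443 lower, and against PB 1280 (7.91%), 476 higher and 804 lower. The median log2 difference of all genes was -0.01, -0.07 and -0.11 in that order. Scaling each library by its median ratio moved the median against PB to 0.01 and the split to 610 higher and 626 lower (49.4% higher in place of 37.2%). By edgeR the split was 555 to 474 against DVC (53.9% higher in place of 41.7%) and 854 to 739 against PB (53.6%), and by DESeq2 610 to 486 (55.7%) and 896 to 762 (54.04%). Without NTS replicate 1, 396 genes were higher and 200 lower than in NTS (66.4% higher in place of 50.5%). With all 57 adult libraries in the fit, the calls against NTS were 321 higher and 176 lower (64.6% higher). Without CBN replicate 3, 128 genes were higher and 147 lower than in NTS, and 201 higher and 368 lower than in DVC.

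**Figure D2:**
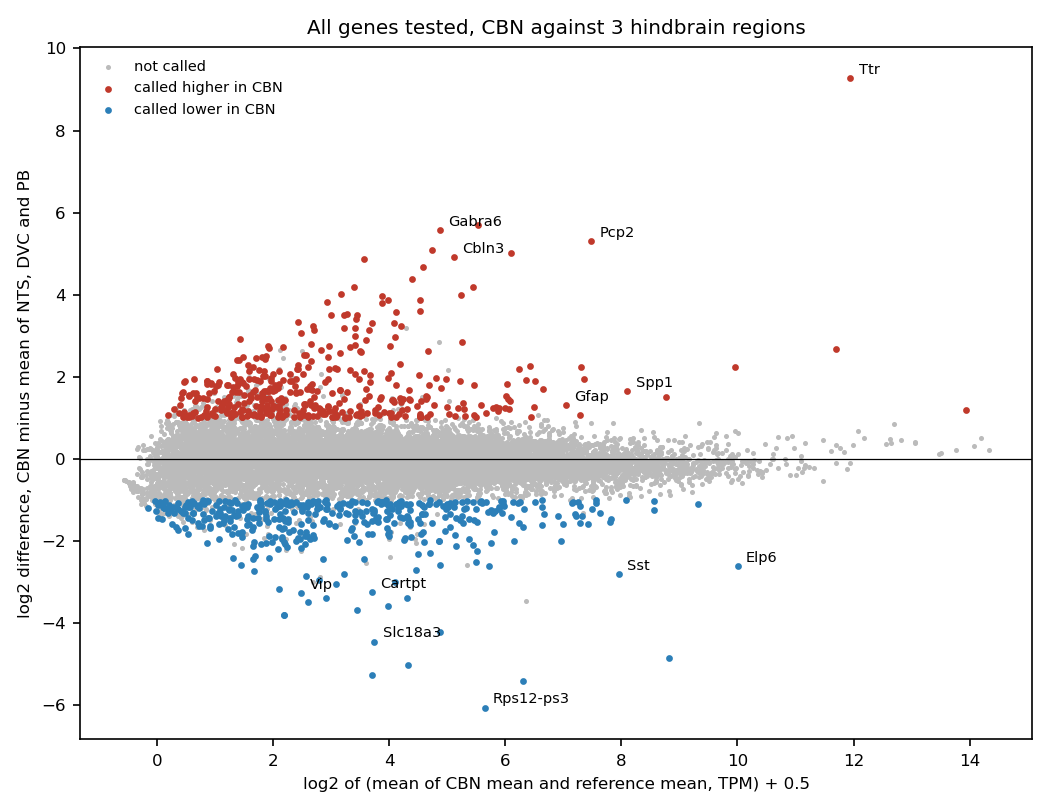
Each point is 1 of the 16186 genes tested, with its mean level in log2(TPM + 0.5) on the x axis and its log2 difference, CBN minus the equal-weight mean of NTS, DVC and PB, on the y axis. Red points are the 407 genes called higher and blue points the 437 called lower; named genes are described in the text.

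Among called genes with CBN above all 10 reference libraries, Gabra6 had the largest difference. Gabra6, the GABA-A receptor subunit of granule cells (ENSMUSG00000020428.13, chr11:42306437-42321072, strand -, build GRCm38), was at 28.7, 55.7 and 84.8 TPM in CBN and at 0.0836 to 3.40 (median 0.432) TPM in the reference. The groups did not overlap, and the log2 difference was 5.58 ± 0.61 (SE), adjusted p = 4.07e-05, n = 3 against 10. In the lobule libraries it stood at 227 to 749 TPM, above every CBN library. Cbln3, a synapse organizer of granule cells, was at 40.4, 65.2 and 93.8 TPM against 0.633 to 5.19 (median 1.16) (log2 difference 4.92). Fat2, an atypical cadherin of parallel fibres, was at 10.5, 15.6 and 23.4 against 0.121 to 1.32 (median 0.398) (4.03), and Neurod1, a proneural factor, at 16.9, 28.7 and 44.4 against 1.88 to 5.42 (median 2.87) (2.97). Gabrd, the extrasynaptic partner of Gabra6, was at 12.2, 17.3 and 29.4 TPM against 0.550 to 1.95 (median 0.989) (3.51). In all 5, CBN replicate 1 was the lowest CBN library and replicate 3 the highest. Of the list, 9 of 12 members tested were called higher and 0 lower, with a median log2 difference of 2.07; 1 was lower at an unadjusted limma p under 0.05, and edgeR and DESeq2 called 10 higher and 0 lower.

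Purkinje cell genes were also among them. Pcp2 (ENSMUSG00000004630.18, chr8:3623371-3625545, strand -) was at 230.4, 291 and 514 TPM in CBN and at 2.88 to 42.6 (median 7.03) TPM in the reference, with a log2 difference of 5.30 ± 0.54 (SE), adjusted p = 2.58e-05. The highest reference value was PB replicate 1, still well under each CBN library. Ppp1r17, a phosphatase inhibitor of Purkinje cells, was at 14.8, 16.6 and 24.9 TPM against 0.311 to 7.49 (median 0.773) (3.41), and Car8, which binds the IP3 receptor, at 50.2, 61.0 and 86.0 against 5.36 to 25.9 (median 7.49) (2.84). Itpr1, the IP3 receptor itself, was at 159, 109 and 159 TPM against 25.6 to 73.3 (median 31.5) (1.91). Calb1, a calcium buffer, overlapped the reference, at 52.5, 86.7 and 126 against 16.3 to 69.0 (median 35.9) TPM; its log2 difference of 1.25 (adjusted p = 0.0111) became 0.95 (adjusted p = 0.0819) without CBN replicate 3. Of the Purkinje list, 9 of 14 members tested were called higher and 0 lower, with a median log2 difference of 1.16; 0 were lower at an unadjusted limma p under 0.05 or by edgeR or DESeq2. Gdf10, a marker of Bergmann glia, was at 19.7, 8.50 and 26.0 TPM against 0.883 to 5.68 (median 1.61) (2.78). Among 7 other markers of the cortex, 2 were called higher and 1 lower (median 0.24), with 2 lower without CBN replicate 2, NTS replicate 3 or DVC replicate 3.

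Among genes with a CBN mean of at least 5 TPM, predicted genes left out, the remaining ones of the 15 largest separated differences were Cnpy1, Iltifb, Crtam, Hsd17b14, Il16 and Zic2. Cnpy1, named for a regulator of FGF signalling at the isthmus, was at 31.0, 30.2 and 60.1 TPM against 0.179 to 16.1 (median 2.19) (3.61); its difference was 5.07 against NTS, 4.01 against DVC and 1.76 against PB. Crtam was at 6.76, 10.5 and 16.3 TPM against 0.440 to 1.29 (median 0.628) (3.24) and Il16 at 7.87, 11.3 and 16.2 against 0.8286 to 2.35 (median 1.36) (2.65); both are better known from lymphocytes. Their lobule levels, 40.1 to 148 and 43.2 to 131 TPM, were above every CBN library. Hsd17b14, a steroid dehydrogenase, was at 9.59, 19.3 and 9.68 TPM against 0.363 to 4.14 (median 1.40) (2.74), and unlike the others of this group it was lower in the lobules, at 0.0978 to 6.41 TPM; 47.8% of its TPM came from a transcript annotated as processed and not as protein coding. Of the TPM of Iltifb, 88.1% came from a transcript annotated as a retained intron, so its level (6.41, 8.08 and 13.003 TPM in CBN) is uncertain as a gene level. Of the 407 genes called higher, 159 (39.1%) had a mean in the lobules above their mean in CBN. Of the 437 called lower 175 (40.0%) did, and over all genes tested 61.1%, so the share was not particular to the higher genes.

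**Figure D3:**
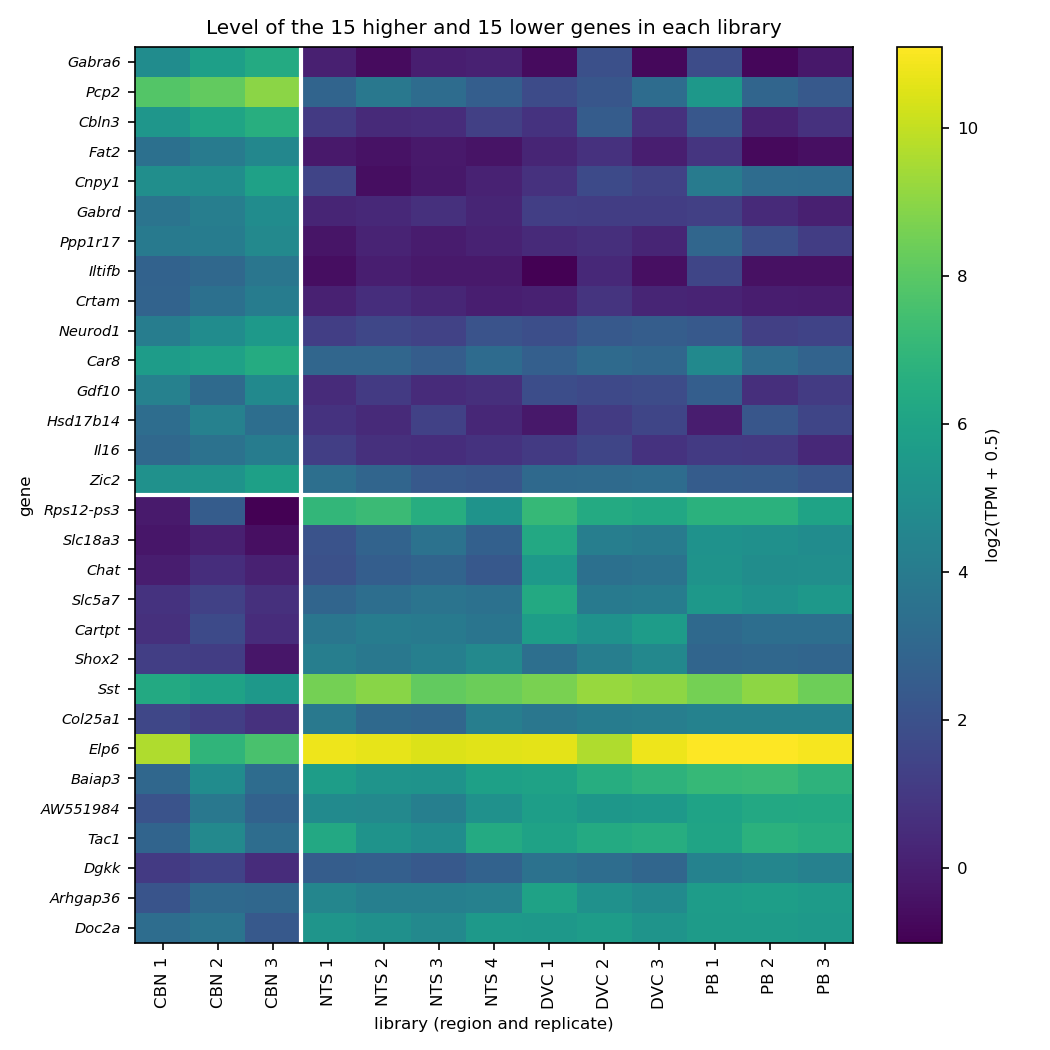
Colour shows log2(TPM + 0.5) of the 15 genes with the largest and the 15 with the smallest log2 difference among called, separated genes, with 1 column per library. Only genes with a mean of at least 5 TPM on the higher side were ranked, and predicted genes were left out. CBN libraries are the first 3 columns, and the white lines part CBN from the reference and the higher from the lower genes.

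For 12 genes called higher, predicted genes left out, every CBN library lay above all 10 reference libraries and above all 15 lobule libraries, with a CBN mean of at least 5 TPM. The following were chosen after their values were seen. Esrrg, an orphan nuclear receptor of the oestrogen-related family, was at 94.0, 77.1 and 74.8 TPM in CBN, 22.8 to 54.3 (median 37.5) in the reference and 29.4 to 55.0 in the lobules (log2 difference 1.23 ± 0.14 (SE), adjusted p = 4.83e-05). Esrrb, of the same family, was at 15.1, 14.6 and 15.8 TPM against 3.67 to 9.80 (median 6.03) (1.29). The 3 CBN libraries were close to each other in both genes. Coch, which encodes cochlin, was at 26.3, 29.3 and 20.7 TPM against 3.19 to 16.0 (median 10.4) (1.49), and Colq, the collagen tail of acetylcholinesterase, at 13.3, 12.3 and 12.1 against 1.23 to 9.54 (median 4.04) (1.67). Slc24a4, a sodium, calcium and potassium exchanger, was at 11.4, 10.8 and 10.4 TPM against 2.50 to 7.02 (median 5.08) (1.16). Spp1, from the marker list, met the same description, with 4.59 to 378 TPM in the lobules and a log2 difference of 1.66 ± 0.15 (SE), adjusted p = 1.33e-05.

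Glutamate and GABA genes gave 1 call. Slc17a7, the vesicular glutamate transporter of granule cells and mossy fibres, was the only excitatory gene of 4 called, at 71.1, 102 and 106 TPM against 20.1 to 60.3 (median 27.2) (log2 difference 1.53 ± 0.14 (SE), adjusted p = 1.07e-05). Slc17a6 had a log2 difference of -0.48. Slc17a8 was at 1.65, 0.379 and 0.262 TPM against 0.542 to 4.28 (median 1.19); its difference of -0.74 became -1.20 (adjusted p = 0.0133) without CBN replicate 1. Of the 4 GABA genes 0 passed both thresholds by limma, edgeR or DESeq2, and 3 had an unadjusted limma p under 0.05. The log2 differences were 0.51 for Gad1, -0.44 for Gad2 (60.9, 66.5 and 50.6 TPM in CBN) and -0.46 for Slc32a1, the vesicular transporter (98.7, 121 and 92.4 TPM). Gad1 alone of these had all CBN libraries above the reference.

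Of 6 glycine genes 3 were called lower (median -0.95), which are 3 of the 4 receptor subunits among them. Glra3 was at 1.07, 1.53 and 0.966 TPM against 2.57 to 10.7 (median 6.60) (log2 difference -2.03), Glra2 at 3.14, 6.87 and 4.03 against 5.91 to 20.8 (median 9.67) (-1.23, or -0.85 with NTS and DVC alone) and Glra1, the main adult subunit, at 89.1, 54.9 and 29.3 against 67.7 to 209.9 (median 177) (-1.34). The difference of Glra1 was -1.84 against NTS, -1.71 against DVC and -0.48 against PB, where CBN and PB overlapped. Glra1 fell under the fold threshold without CBN replicate 3, at -0.93 (adjusted p = 0.00248). Slc6a5, the transporter of glycinergic terminals, was at 58.7, 31.0 and 24.8 TPM in CBN, between NTS and DVC (103 to 156) and PB (7.92 to 12.5), with differences of -2.03 against NTS, -1.71 against DVC and 1.75 against PB. Over the 3 regions its difference was -0.66 (adjusted p = 0.0278), and -1.02 (adjusted p = 6.36e-04) without CBN replicate 1. Slc6a9 (218, 230.1 and 217 TPM in CBN) and Glrb (201, 199 and 181 TPM) differed by 0.01 and -0.20, the latter by 0.04 in edgeR and DESeq2.

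Cholinergic genes had the lowest median log2 difference of any list (-3.62), with 3 of 4 called lower. Slc18a3, the vesicular acetylcholine transporter (ENSMUSG00000100241.1, chr14:32462438-32464850, strand -), was at 0.338, 0.548 and 0.204 TPM in CBN and at 3.81 to 77.7 (median 16.6) TPM in the reference, a log2 difference of -4.45 ± 0.41 (SE), adjusted p = 1.25e-05. Chat, which makes acetylcholine (ENSMUSG00000021919.8, chr14:32408203-32465989, strand -), was at 0.492, 1.004 and 0.590 TPM against 3.50 to 45.3 (median 11.1) (-3.67), and Slc5a7, which takes up choline, at 1.23, 1.999 and 1.08 against 7.15 to 79.9 (median 15.6) (-3.58). No CBN library reached the lowest reference library in these 3 genes, and DVC replicate 1 was the highest library in each, at 77.7, 45.3 and 79.9 TPM. Ache, which breaks acetylcholine down, was at 185, 249 and 201 TPM against 197 to 320.2 (median 272) and was not called (-0.35). Chat and Slc18a3 share 1 locus, and their promoters are printed since both genes were lower together. They come from the RefSeq table for GRCm38.p6, 300 bases each, chr14:32465860-32466159, strand - and chr14:32464801-32465100, strand -, with 759 bases between the windows.
Chat: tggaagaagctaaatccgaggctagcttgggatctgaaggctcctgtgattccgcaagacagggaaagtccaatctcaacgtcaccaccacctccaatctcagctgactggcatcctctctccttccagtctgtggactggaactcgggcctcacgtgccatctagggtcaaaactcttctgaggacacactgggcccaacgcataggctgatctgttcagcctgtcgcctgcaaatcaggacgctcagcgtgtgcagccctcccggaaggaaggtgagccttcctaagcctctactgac
Slc18a3: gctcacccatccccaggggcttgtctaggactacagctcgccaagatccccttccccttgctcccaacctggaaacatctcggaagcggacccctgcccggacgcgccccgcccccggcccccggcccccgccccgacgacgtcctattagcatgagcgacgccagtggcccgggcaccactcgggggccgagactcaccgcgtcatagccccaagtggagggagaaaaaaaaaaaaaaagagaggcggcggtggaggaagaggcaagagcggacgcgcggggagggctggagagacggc

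**Figure D4:**
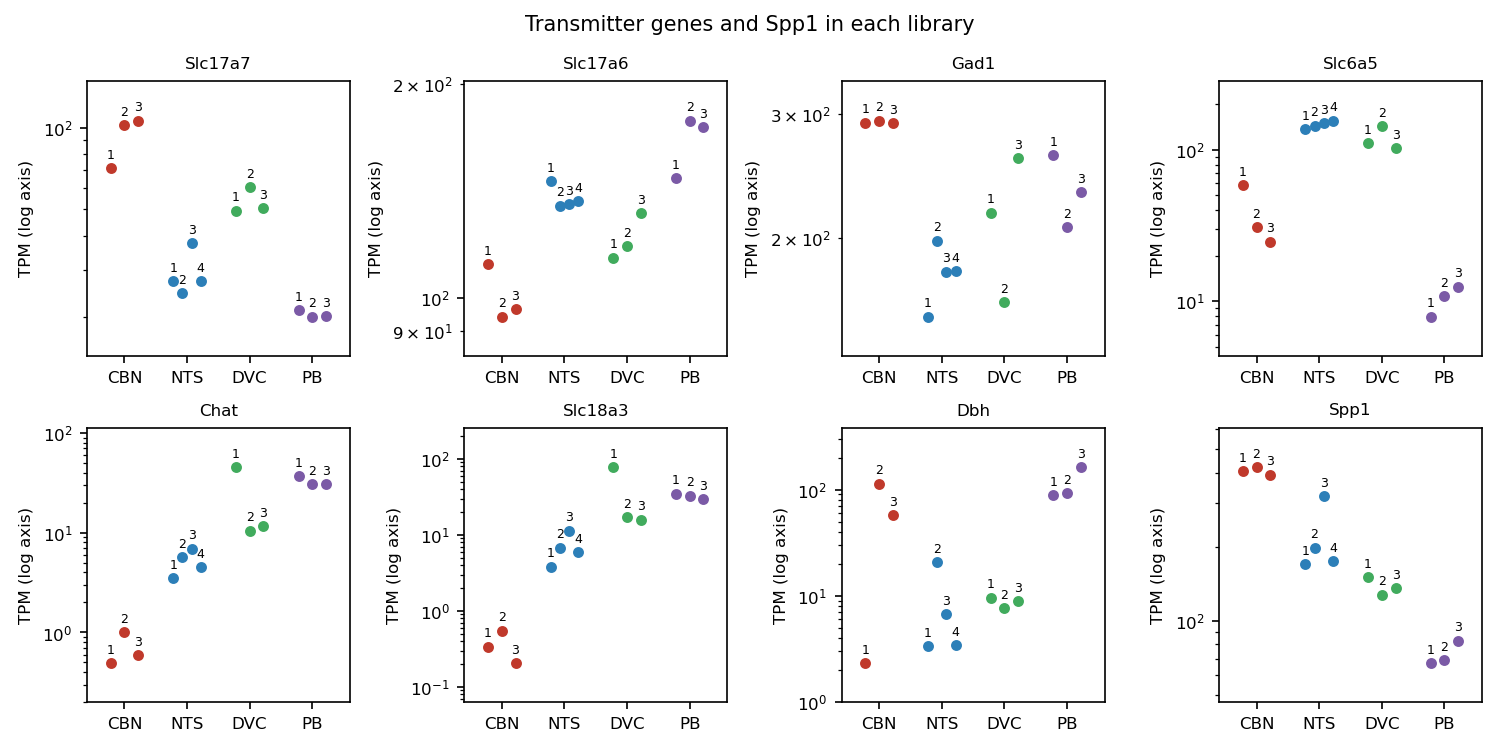
TPM on log axes of 7 transmitter genes and Spp1, with 1 point per library, numbered by replicate and grouped by region. Slc17a7, Gad1 and Spp1 are higher in all CBN libraries, Chat and Slc18a3 lower, and Dbh parts CBN replicate 1 from replicates 2 and 3.

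Catecholamine genes depended on the CBN library. Dbh, which makes noradrenaline, was at 2.32, 114 and 57.5 TPM in CBN, at 3.38 to 20.6 in NTS, 7.62 to 9.63 in DVC and 89.0 to 163 in PB. Slc6a2, the noradrenaline transporter, was at 1.69, 50.8 and 26.4 TPM, Th, the first enzyme of the pathway, at 4.38, 66.7 and 31.6, Slc18a2, the vesicular transporter, at 2.94, 39.6 and 20.6, and Ddc, the decarboxylase, at 9.02, 39.6 and 22.3. Replicate 1 was the lowest CBN library in all 5 genes and replicate 2 the highest. Limma called 0 of these 5 over the 13 libraries, 0 at an unadjusted p under 0.05 (log2 differences 0.47, 1.52, 0.12, 0.45 and -0.46), while edgeR and DESeq2 called Slc6a2 alone (2.53 and 2.50). Without CBN replicate 1, the differences of Dbh (2.08, adjusted p = 0.0121), Slc6a2 (2.88, 0.00897), Th (1.21, 0.0475) and Slc18a2 (1.47, 0.0132) passed, and without CBN replicate 2 those of Dbh, Th and Slc18a2 turned negative (-0.59, -0.69 and -0.30), as did Dbh and Th without CBN replicate 3 (-0.10 and -0.15), and Ddc turned positive without CBN replicate 1 (0.09). Gch1, which makes a cofactor of Th, was at 1.12, 4.32 and 2.11 TPM (0.14, or -0.27 without CBN replicate 2). Pnmt, which makes adrenaline, was the 1 of 7 called lower, at 0, 0.290 and 0 TPM against 0 to 3.32 (median 1.19) (-1.33, adjusted p = 0.0272). The limma call was lost without CBN replicate 1 (-1.22, 0.0939) and without CBN replicate 3 (-1.22, 0.105). It was also lost with PB joined to NTS (-1.1, 0.0732) or to DVC (-0.97, 0.109) as the only reference. Neither edgeR (-2.38, 0.0838) nor DESeq2 (-2.52, 0.0631) made the call.

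The serotonin calls rested on PB. Tph2, which makes serotonin, was at 0.617, 0.693 and 0.709 TPM in CBN, 0.440 to 1.68 in NTS and DVC, and 79.8, 8.69 and 31.8 in PB. Slc6a4, the serotonin transporter, was at 0.0423, 0.203 and 0.197 TPM in CBN and 52.6, 3.99 and 22.7 in PB. Both were called lower (-1.55 and -1.72), and both calls were lost with NTS and DVC alone as the reference (-0.02, adjusted p = 0.982, and -0.19, adjusted p = 0.856). Without CBN replicate 1, 2 or 3 the values were -1.52, -1.56 and -1.57 for Tph2 (adjusted p 0.0785, 0.0698 and 0.0802), and leaving out any CBN or NTS library, DVC replicate 1 or PB replicate 3 ended the Slc6a4 call (-1.78 to -1.52). By edgeR the Slc6a4 call was also lost (-3.63, adjusted p = 0.0513). With all 57 adult libraries in the limma fit both calls were lost (adjusted p = 0.0944 for Slc6a4 and 0.154 for Tph2). The same held with no filter on low values (0.0731 and 0.0535). Fev, a factor of serotonin neurons, was at 0.386, 0 and 0 TPM and was not tested.

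GABA-A receptor subunits were called in both directions. Of 15 GABA-A receptor subunits, 2 were called higher, Gabra6 and Gabrd, and 4 lower, with a median of -0.58. Gabrg3 was at 2.60, 1.16 and 0.767 TPM against 3.27 to 6.16 (median 5.21) (-1.54), Gabra5, of extrasynaptic receptors, at 14.8, 10.7 and 5.89 against 22.8 to 36.9 (median 30.4) (-1.53), and Gabra3 at 31.1, 27.7 and 20.8 against 51.8 to 69.8 (median 63.7) (-1.23). Gabrq was at 0.410, 12.2 and 5.04 TPM and its difference of -1.84 became -0.77 (adjusted p = 0.0383) without CBN replicate 1; the call was also lost by edgeR (-1.19, 0.0674), by DESeq2 (-1.21, 0.101) and with NTS and DVC alone as the reference (-1.16, 0.154). Among 18 channels of fast-firing neurons, Kcng4, a silent potassium channel subunit, was called higher, at 84.6, 96.7 and 102 TPM against 16.3 to 69.9 (median 40.0) (1.47), and the median was 0.03, or -0.06 without CBN replicate 1. Of 10 perineuronal net genes 0 were called by limma, edgeR or DESeq2 (median -0.05, or 0.02 with median-ratio scaling). An unadjusted limma p under 0.05 was found for 3 of them, beside 7026 of all 16186 genes tested.

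Axon and calcium-binding genes split in both directions. Spp1 was the 1 of 12 neurofilament and axon genes called higher, and 3 were lower. Gap43, of growing and plastic axons, was at 73.7, 136 and 118 TPM against 174 to 536 (median 287) (-1.54), and Sv2c, of synaptic vesicles, at 44.5, 34.7 and 25.1 against 62.9 to 118 (median 93.4) (-1.31). Prph, the neurofilament of peripheral and motor neurons, was at 2.78, 16.1 and 8.47 TPM against 6.84 to 148 (median 25.5), and its difference of -1.77 became -1.13 (adjusted p = 0.112) without CBN replicate 1 and -1.22 (0.0982) with NTS and PB alone as the reference. Pvalb, a fast calcium buffer, was at 520.4, 663 and 712 TPM against 127 to 427 (median 224) (1.52) and was called higher with Calb1. Necab2 at 19.03, 14.3 and 9.94 TPM against 35.4 to 92.7 (median 41.9) (-1.85) and Necab1 at 6.66, 6.79 and 5.86 against 10.9 to 29.6 (median 20.5) (-1.54), both neuronal EF-hand proteins, were the 2 of 8 called lower.

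Of 30 cerebellar and isthmic factors tested, 13 were called higher and 4 lower (median 0.42), the lower ones being Pax8, Meis2, Pax5 and Gbx2. Zic2, the factor of the Zic family with the largest difference, was at 34.1, 36.2 and 58.9 TPM against 3.90 to 10.04 (median 6.27) (2.62), and Zic1 at 122, 81.4 and 151 against 7.13 to 80.5 (median 35.1) (2.20). Eomes, of unipolar brush cells, was at 4.57, 3.15 and 5.08 TPM against 0 to 0.389 (median 0.0907) (2.92). En2, of the midbrain and anterior hindbrain, was at 8.79, 12.1 and 23.6 TPM, 0.876 to 1.78 in NTS and DVC, and 8.13 to 11.3 in PB (2.16). Pax8, of early hindbrain interneurons, was lower, at 2.53, 0.299 and 0.407 TPM against 1.51 to 21.97 (median 13.1) (-2.95), overlapping PB. Pax5, at 0.238, 2.10 and 0.513 TPM against 0.454 to 22.8 (median 1.27) (-1.46), was no longer called without CBN replicate 1 (-1.08) or 3 (-1.31), DVC replicate 1 (-1.44) or 2 (-1.38), or PB replicate 1 (-1.38) or 2 (-1.47), nor with median-ratio scaling (-1.40). It rested on PB, with differences of -0.39 against NTS, -0.20 against DVC and -3.78 against PB. Gbx2, at 1.35, 1.72 and 1.40 TPM against 0.0615 to 14.46 (median 5.48) and with a difference just past the fold threshold, was not called by edgeR (-0.52) or DESeq2 (-0.50), nor with any CBN library left out (-1.09 to -0.95), nor without NTS replicate 1 (-0.95) or 4 (-0.89), DVC replicate 2 (-0.99), or PB replicate 2 or 3 (-0.97 each). Its differences were -1.61 against NTS, -2.84 against DVC and 1.43 against PB, called higher against PB (adjusted p = 0.0143). Of 24 dorsal medullary and pontine factors, 0 were called higher by limma, 1 by edgeR and 0 by DESeq2, 4 of them higher at an unadjusted limma p under 0.05, and 3 were called lower by limma (median -0.52), 5 by edgeR and 5 by DESeq2, with 10 lower at an unadjusted limma p under 0.05 and 7 called lower without CBN replicate 2. Without CBN replicate 1, 1 was higher. Nkx6-1 was at 0.765, 0.701 and 0.432 TPM against 1.498 to 6.07 (median 3.47) (-1.67). Lmx1b, at 1.09, 3.81 and 1.501 TPM (-1.26, adjusted p = 0.00895), lost its call without CBN replicate 1 (-0.97, 0.0573) and without CBN replicate 3 (-1.13, 0.0526), and with NTS and DVC alone as the reference (-0.81, 0.0899). Shox2, one of the 15 lowest genes, was at 1.83, 1.804 and 0.333 TPM against 7.16 to 25.8 (median 15.7) (-3.05).

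Hox genes, which mark levels of the hindbrain behind the cerebellum, were lower than in NTS and DVC and higher than in PB. Of 18 tested, 0 were called higher and 11 lower over the 3 regions (median -1.23, or -0.07 by edgeR and -0.01 by DESeq2). The medians were -1.58 against NTS, -3.32 against DVC and 1.62 against PB, with 9 and 16 called lower and 10 called higher in turn. Hoxc4 was at 5.38, 0.888 and 0.152 TPM in CBN, 7.70 to 11.98 in NTS, 35.7 to 48.4 in DVC and at most 0.133 in PB. Hoxb5 was at 4.46, 0.933 and 0.426 TPM, with differences of -1.52 against NTS, -5.39 against DVC and 1.85 against PB. The calls over the 3 regions depended on the reference and the tool. By limma 0 were called with NTS and PB alone as the reference (median -0.13) and 0 with the 10 reference libraries as 1 group (median -1.22). Of the 18, 13 had an unadjusted limma p under 0.05, all lower, while edgeR called 0 and DESeq2 2, and neither called Hoxc4, Hoxc5, Hoxb5 or Hoxb4. The cause was not tested. With CBN replicate 1 left out, 14 of the list were called lower, without CBN replicate 2, 6 and without CBN replicate 3, 4. In the last setting Hoxc4 (-1.17, adjusted p = 0.0506), Hoxc5 (-1.32, 0.0793) and Hoxb4 (-1.16, 0.058) lost their calls, and Hoxc5 did so without CBN replicate 2 as well (-1.23, 0.0714).

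Neuropeptide genes were lower as a list, with 17 of 44 tested called lower and 3 higher (median -0.90). Over all genes tested 2.70% were called lower and 2.51% higher (median -0.07). Cartpt, a satiety peptide (ENSMUSG00000021647.7, chr13:99898489-99901091, strand -), was at 1.12, 2.76 and 0.948 TPM against 8.16 to 53.4 (median 13.9) (log2 difference -3.25 ± 0.21 (SE), adjusted p = 2.64e-06). Sst, which encodes somatostatin (ENSMUSG00000004366.4, chr16:23889573-23890958, strand -), was at 80.3, 62.6 and 42.8 TPM against 291 to 599.6 (median 389) (-2.80 ± 0.20 (SE), adjusted p = 3.79e-06). The groups did not overlap in either gene. Vip was at 0.319, 0.139 and 0 TPM against 0.267 to 26.4 (median 11.3) (-3.27), with PB near CBN (-0.90). Tac1, which encodes substance P, was at 6.95, 25.7 and 9.46 TPM against 28.6 to 105 (median 81.7) (-2.51). Adcyap1, Vgf, Penk, Pdyn and Npy were also lower (-1.93, -1.99, -1.34, -1.78 and -1.10), Npy under the fold threshold without CBN replicate 1 (-0.90) and with NTS and PB alone as the reference (-0.65). The 3 higher genes were Cbln1, Igf2 and Igf1. Cbln1, a synapse organizer of granule cells counted among the secreted peptides, was at 216, 231 and 329 TPM against 32.5 to 96.8 (median 47.6) (2.23). Igf2 was at 221, 68.9 and 120.5 TPM, and at 158 in NTS replicate 1 against 13.3 to 30.2 in the other reference libraries; its difference of 2.27 became 1.85 (adjusted p = 0.0718) without CBN replicate 1. The call of Igf1 (1.01, adjusted p = 0.0346) was lost without CBN replicate 1 (0.65) or 2 (0.97), NTS replicate 1 (1.00), 3 (0.99) or 4 (0.94), DVC replicate 1 (0.94) or 2 (0.98), or PB replicate 1 (1.00) or 3 (0.95).

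The promoters of Sst (chr16:23890795-23891094, strand -) and Cartpt (chr13:99900634-99900933, strand -) are printed as the peptide genes lowest in CBN with full separation. Both hold TGACGTCA (in capitals), the palindromic cAMP response element, a motif chosen after the sequences were seen and the same on both strands. It is present in 588 of 32851 promoters of that length (1.79%), in 5 of the 45 neuropeptide genes found in the table, and in 2 of the 11 found among those called lower. A match is a description only.
Sst: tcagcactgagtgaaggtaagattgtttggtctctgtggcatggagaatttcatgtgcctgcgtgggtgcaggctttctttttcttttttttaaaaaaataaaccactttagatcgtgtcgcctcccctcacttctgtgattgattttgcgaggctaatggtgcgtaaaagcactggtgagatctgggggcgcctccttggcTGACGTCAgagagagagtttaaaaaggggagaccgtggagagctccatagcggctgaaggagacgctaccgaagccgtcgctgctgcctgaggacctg
Cartpt: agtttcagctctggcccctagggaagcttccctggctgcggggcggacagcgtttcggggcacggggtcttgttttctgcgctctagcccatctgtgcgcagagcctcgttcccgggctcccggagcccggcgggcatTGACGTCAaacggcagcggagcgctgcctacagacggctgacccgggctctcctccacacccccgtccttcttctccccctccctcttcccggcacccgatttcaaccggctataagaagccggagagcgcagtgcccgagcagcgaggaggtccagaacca

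Of 40 genes tested from the list of feeding and visceral receptors, 19 were called lower and 2 higher (median -0.68). Over all genes tested the shares were 2.70% and 2.51%. The list also holds receptor partners and the ligand gene Bdnf, which was among the lower ones. Mc4r, the melanocortin receptor of satiety, was at 0.293, 0.438 and 0.0708 TPM against 2.32 to 5.97 (median 4.38) (log2 difference -2.58 ± 0.21 (SE), adjusted p = 5.20e-06). Npy2r, a presynaptic receptor of neuropeptide Y, was at 0.711, 0.299 and 0.363 TPM against 2.79 to 7.90 (median 4.25) (-2.44), and Tacr1, the substance P receptor, at 1.42, 1.56 and 0.622 against 3.13 to 11.1 (median 6.58) (-2.14). No CBN library reached the reference in these 3. Trhr2 was at 0, 0.406 and 0.236 TPM against 1.40 to 3.73 (median 2.38) (-2.05). Mc4r, Npy2r and Trhr2, under 1 TPM in every CBN library, were tested only through their reference levels. Glp1r was at 2.32, 0.869 and 0.491 TPM against 1.26 to 4.24 (median 3.06) (-1.08), with CBN replicate 1 inside the reference range, and its call was lost without CBN replicate 2 (-0.98, adjusted p = 0.056) or 3 (-0.75, 0.0953), and with NTS joined to DVC (-0.90) or to PB (-0.99) as the only reference. Ntsr1, Oxtr, Avpr1a and Galr1 were lower without overlap (-1.78, -1.63, -1.55 and -1.63). The higher genes were Ramp3, a receptor partner, at 8.81, 8.76 and 16.4 TPM against 0.488 to 6.73 (median 2.09) (1.94), and Crhr2, at 6.13, 2.01 and 2.61 TPM, with 4.20 in NTS replicate 1 and at most 0.616 in the other reference libraries (1.87, or 1.45 with an adjusted p of 0.0983 without CBN replicate 1).

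Of the obesity-associated genes listed by the study, 180 were tested, of which 3 were called higher and 9 lower, beside 2.51% and 2.70% of all genes (median -0.13 beside -0.07). Among the 9 monogenic genes, 3 of 8 tested were called lower. Besides Mc4r these were Pcsk1, which cleaves prohormones, at 9.01, 7.88 and 4.45 TPM against 9.90 to 29.2 (median 17.6) (-1.42), and Bdnf, a neurotrophin, at 1.88, 2.11 and 1.61 against 2.42 to 8.92 (median 4.27) (-1.22, or -0.89 with NTS and DVC alone as the reference). Its receptor Ntrk2 was at 171, 155 and 139 TPM (-0.13), Tub at 32.9, 34.5 and 29.9 (-0.52) and Sh2b1 at 44.6, 45.1 and 42.2 (-0.05, or 0.03 with median-ratio scaling). Lepr, the leptin receptor, was at 6.63, 2.74 and 3.17 TPM against 1.03 to 5.91 (median 1.79) and was not called (0.74), while edgeR and DESeq2 called it (1.16 in both, adjusted p = 0.0341 and 0.0216). Pomc was at 2.30, 2.60 and 2.75 TPM (-0.25), and Sim1 was listed at 0 in all CBN libraries and at no more than 0.042 TPM in the reference libraries, too low for a test. Arhgef33 (34.9, 19.9 and 32.3 TPM against 2.35 to 20.9 (median 5.25), 2.32) and Sorcs3 (4.18, 4.53 and 4.15 against 7.05 to 16.8 (median 11.5), -1.36) were further members called.

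Glial and vascular lists gave 3 calls. Gfap, of reactive and fibrous astrocytes, was the 1 of 12 astrocyte markers called higher, at 175, 153 and 224 TPM against 37.9 to 125 (median 70.6) (log2 difference 1.32), while Aqp4 (0.73) and Aldh1l1 (0.10) were not called. Of 18 myelin genes 0 passed both thresholds by limma, edgeR or DESeq2, though 15 had an unadjusted limma p under 0.05. Mbp was at 5906, 10064 and 9315 TPM against 5256 to 8361 (median 5739) (0.45) and Mog at 164, 272 and 257 (0.33). The median of that list was 0.45, or 0.68 with 1 call without CBN replicate 1, and 17 of its 18 members lay above the median of all genes. Limma, edgeR and DESeq2 called 0 of 10 microglia markers (median 0.02, or -0.01 and -0.05 without CBN replicates 2 and 3), 0 of 5 of oligodendrocyte precursors (median -0.10) and 0 of 5 of red cells (median 0.33, or -0.04 without CBN replicate 1), with 2, 3 and 0 at an unadjusted limma p under 0.05. Of 15 vascular markers 2 were higher, Lum, at 7.74, 2.16 and 4.30 TPM with 5.18 in NTS replicate 1, and Col1a1, at 10.7, 5.28 and 8.60. Their differences of 1.51 and 1.04 became 1.10 (adjusted p = 0.126) and 0.83 (adjusted p = 0.065) without CBN replicate 1, and 1.49 (0.0748) and 0.98 (0.0531) without CBN replicate 3. Col1a1 also slipped under the fold threshold without NTS replicate 3 (0.97), DVC replicate 2 (0.95) or PB replicate 3 (0.99). All 15 vascular markers lay above the median of all genes (list median 0.34), and 12 were higher at an unadjusted limma p under 0.05. Egr1 was the 1 of 10 immediate early genes called, lower at 6.04, 11.2 and 8.85 TPM against 12.6 to 27.1 (median 17.7) (-1.06), and it was under the threshold without CBN replicate 1 (-0.83), without DVC replicate 2 (-0.99) and with median-ratio scaling (-0.98). Its call was also lost with NTS joined to DVC (-1.0) or to PB (-0.97) as the only reference.

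Choroid plexus genes were high in all CBN libraries and in 1 reference library. Ttr, which carries thyroid hormone and retinol in the cerebrospinal fluid, was at 12242, 3438 and 5225 TPM in CBN, 10331 in NTS replicate 1, 273 in DVC replicate 1 and at most 52.5 in the other 8. Folr1, the folate receptor, was at 148, 33.5 and 62.3 TPM with 120.3 in NTS replicate 1, Kcne2 at 89.1, 16.8 and 35.7 with 59.3, and Clic6 at 143, 28.2 and 54.2 with 105. CBN and NTS overlapped in each, and the log2 differences were 9.27, 5.71, 5.10 and 4.19 in that order. Of the 11 members, 8 were called higher and 0 lower by limma (median 3.81), 0 of them with full separation; 0 were lower at an unadjusted p under 0.05, and edgeR and DESeq2 called 10 and 8 higher and 0 lower. Leaving out CBN replicate 1, 3 were called, and Clic6 lost its call (3.57, adjusted p = 0.0594), as did Sema3b of the obesity list (2.17, 0.0588). Without NTS replicate 1, 10 were called, and without both libraries, a setting chosen after these values were seen, 7. In that last setting 361 genes were higher and 451 lower, of which 301 and 368 were also called with all 13 libraries. NTS replicate 1 was the highest of the 10 reference libraries for 209 of the 407 higher genes (51.4%), 8 of the 437 lower ones (1.8%) and 1550 of all genes tested (9.6%).

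**Figure D5:**
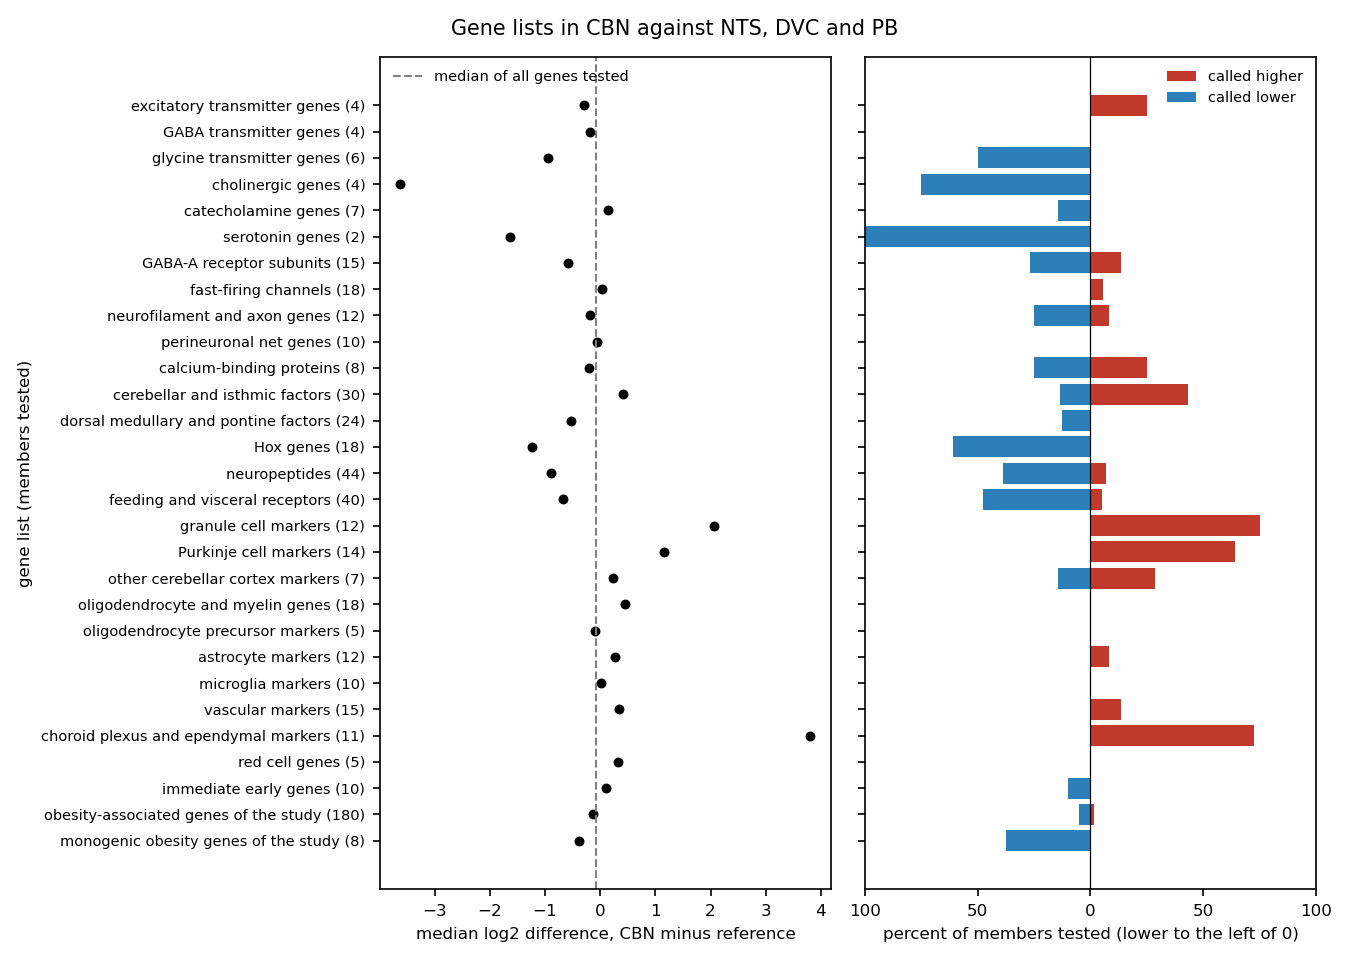
The left panel gives the median log2 difference, CBN minus reference, of each of 29 gene lists beside the median of all genes tested (dashed). The right panel gives the percent of members tested that were called higher (red, to the right of 0) or lower (blue, to the left of 0); choroid plexus, granule and Purkinje cell markers lead the higher side and serotonin, cholinergic and Hox lists the lower.

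Rps12-ps3 and Elp6 were among the other separated genes lower in CBN. Rps12-ps3, at 0.423, 5.17 and 0 TPM against 36.6 to 152 (median 97.9) (-6.06), is named as a pseudogene but its 1 transcript is annotated as protein coding; whether it shares reads with other genes was not tested. Elp6 was at 793, 118 and 198 TPM against 804 to 2183 (median 1673) (-2.61), but 99.4% of this came from a transcript annotated as a retained intron. Its other transcripts together had means of 6.73 TPM in CBN and 7.999 in the reference. Col25a1, a transmembrane collagen of neurons, was at 2.46, 1.84 and 1.17 TPM against 7.58 to 20.01 (median 17.0) (-2.80), and Baiap3, of dense-core vesicle release, at 7.62, 29.3 and 9.29 against 36.0 to 148 (median 76.9) (-2.60). Doc2a, a calcium sensor of transmitter release, was at 9.34, 11.97 and 4.68 TPM against 25.4 to 50.5 (median 44.0) (-2.30), and Dgkk, a diacylglycerol kinase, at 1.57, 2.20 and 0.961 against 4.69 to 22.6 (median 8.47) (-2.43). Arhgap36 and AW551984 differed by -2.32 and -2.58. All 30 genes of both groups of 15 stayed called under each of the 30 other settings in which they were tested.

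Mitochondrial transcripts took 11.97%, 10.07% and 9.88% of TPM in the CBN libraries, and 6.46% to 12.41% (median 7.95%) in the reference, where NTS replicate 4 was above every CBN library. The means were 10.64% ± 1.15 (SD, n = 3) in CBN, 9.65% ± 1.86 (n = 4) in NTS, 7.66% ± 0.53 (n = 3) in DVC and 6.87% ± 0.38 (n = 3) in PB. The CBN mean was 2.58 percentage points above the mean of the 3 regions (exact permutation test, two-sided, p = 0.025 over 1201200 assignments of libraries to regions). Within batches 1, 3 and 4 the CBN library was 4.29, 2.14 and 0.63 points above the mean of the reference libraries of the same batch. Without CBN replicate 1 the difference was 1.92 (exact p = 0.142), and without NTS replicate 1 it was 2.45 (exact p = 0.05). The share enters every TPM value of a library; with the mitochondrial genes left out, 429 genes were higher and 415 lower.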

How the data were processed

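RNA of the 13 libraries described above was measured by sequencing. The authors ran CASAVA 1.8.2 and kallisto on the cDNA of GRCm38; the deposited values are estimated counts (expected_counts) per transcript and TPM per transcript and gene, and TPM was made by the authors within each library. Total estimated counts were 14746313 to 19999209. Gene TPM was tested with limma 3.58.1 in R 4.3.3 on log2(TPM + 0.5), with a trend in the variance, region as a factor with 4 levels, the contrast of CBN minus the mean of 3 regions, and Benjamini-Hochberg adjustment over genes with at least 1 TPM in 3 libraries. The fit was tested on simulated data. Separation of libraries and gene lists are counts with no p. The fixed design named an exact test for the mitochondrial share without saying which groupings it runs over; assignments to all 4 regions were enumerated, and groupings of CBN against the rest were added. Alternatives changed the pseudocount, filter, scaling, reference, libraries and tool, and added batch as a term after the data had been seen, with edgeR 4.0.16 and DESeq2 1.42.0 on counts summed per gene. For 378 genes the matched transcripts differ in TPM from the gene table. Python 3.11.15, NumPy 2.4.6, pandas 2.3.3 and matplotlib 3.10.9 did the rest.

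The members and lists were chosen with earlier results of these data known. Named genes are the 15 with the largest and the 15 with the smallest difference among called genes with full separation and a mean of at least 5 TPM on the higher side, predicted genes left out; list members that define a list or are called, up to 4 of each with values; and all transmitter and monogenic obesity genes. A few genes that meet the rule are not named and have no alternatives. The other genes named, most of them further members of these lists, were chosen after their values were seen.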

Additional observations from a re-analysis of the deposited data

Results flagged for a closer look

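Of 169 quantities examined in the 4 NTS libraries, 25 had 1 library far from the other 3 by the size of the gap relative to the whole range. The nominal share by chance is about 1 in 20 for a single quantity. The 25 cannot be compared with it, since list sums are counted beside their own members and some values lie near 0 TPM. For each, the values of replicates 1 to 4 are followed by the gap as a share of the range.

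NTS replicate 1 was the highest library for these. Choroid plexus and ependymal markers in sum stood at 10875, 43.6, 75.4 and 32.5 TPM (0.996). Lum stood at 5.18, 1.12, 0.679 and 0.740 TPM (0.902). Ttr stood at 10331, 10.7, 3.85 and 2.47 TPM (0.999). Folr1 stood at 120.3, 0, 0.526 and 0 TPM (0.996). Kcne2 stood at 59.3, 0.0698, 0.141 and 0.272 TPM (0.997). Clic6 stood at 105, 0.822, 1.005 and 1.30 TPM (0.995). Sema3b stood at 19.1, 1.13, 3.47 and 0.879 TPM (0.858). Sh2b1 stood at 52.1, 41.8, 39.8 and 41.7 TPM (0.839). Itpr1 stood at 43.1, 30.7, 29.9 and 29.1 TPM (0.886). Igf2 stood at 158, 30.2, 14.8 and 13.3 TPM (0.883). Lmx1a stood at 2.33, 0, 0.336 and 0.0570 TPM (0.856). Crhr2 stood at 4.20, 0.412, 0.368 and 0.0530 TPM (0.913). NTS replicate 2 was highest or lowest for these. Excitatory transmitter genes in sum stood at 288, 273, 290.1 and 289 TPM (0.883). Catecholamine genes in sum stood at 31.9, 79.5, 37.2 and 34.0 TPM (0.888). Serotonin genes in sum stood at 0.892, 1.78, 0.913 and 1.03 TPM (0.840). Gabra6 stood at 0.532, 0.148, 0.516 and 0.569 TPM (0.874). Slc6a2 stood at 0.726, 8.63, 1.08 and 0.408 TPM (0.918). Eomes stood at 0.0367, 0, 0.0385 and 0.0371 TPM (0.954). Th stood at 7.41, 21.5, 7.0004 and 6.50 TPM (0.939). NTS replicate 3 was highest for these. Isl1 stood at 0.394, 0.248, 1.24 and 0.241 TPM (0.847). Pcp4 stood at 345, 342, 399 and 349 TPM (0.876). NTS replicate 4 was highest for these. GABA-A receptor subunits in sum stood at 476, 473, 472 and 548 TPM (0.940). Pax5 stood at 0.553, 0.811, 0.522 and 4.63 TPM (0.929). Gabra3 stood at 51.8, 53.3, 52.3 and 63.9 TPM (0.878). The mitochondrial share was 8.43, 8.96, 8.80 and 12.4 percent of TPM (0.867).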

How the results depend on the processing

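In every setting, 0 of the genes called both there and among the 407 higher and 437 lower genes had opposite signs. This count leaves out genes that lost their call, of which Hoxb5, among the named ones, changed sign. The higher count was outside 1.5 times its value with at least 5 TPM required (230, with fewer genes tested). It was also outside without CBN replicate 1 (262) or CBN replicate 3 (256). The same held with edgeR (721) and with DESeq2 (741), of which 379 and 372 were shared. The cause was not tested. The lower count stayed within 331 to 604 in the other settings. Calls against NTS ranged from 302 to 621, the highest with DESeq2, against DVC from 529 to 1096 and against PB from 903 to 1658. Leaving out 1 library at a time gave 256 to 514 higher and 332 to 469 lower genes, 275 to 596, 569 to 915 and 1068 to 1467 calls against NTS, DVC and PB, 727 to 1243 genes above and 1947 to 2729 below all reference libraries, and a mitochondrial difference of 1.92 to 2.96 (exact p 0.00455 to 0.142). Groupings of CBN against the 10 others as 1 group, 286 in all and added after the data had been seen, gave 2.42 (exact p = 0.0385).

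With the replicate number as a block, 419 genes were higher and 427 lower, of which 377 and 419 were shared. The named calls lost with this block were those of Pnmt (-1.27, limma adjusted p = 0.0503), Gbx2 (-0.89) and Igf1 (0.94, 0.0523). Pairs of libraries from different regions were also correlated across genes, after the mean of each region was subtracted from its libraries. The 18 same-numbered pairs had a correlation of -0.07 to 0.199 (median 0.052), and other pairs a median of -0.006. Not every library went best with its own number. CBN replicate 3, for instance, had 0.012 with NTS replicate 3 and 0.042 with NTS replicate 2. With batch as a term, added after the data had been seen, 390 genes were higher and 445 lower, and 450, 721 and 1377 were called against NTS, DVC and PB. Where an arm kept 2 libraries, all regions were taken to share 1 spread.

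Named genes that changed sign were not called by limma over the 13 libraries, apart from Hoxb5, and the cause was not tested. With the 10 reference libraries as 1 group the calls of Pnmt, Slc6a4, Tph2, Gabrq, Prph, Lmx1b, Hoxc4, Hoxc5, Hoxb5, Hoxb4, Pax5, Gbx2, Igf1, Pdyn and Npy were lost. The log2 difference of genes that changed sign is given for each setting. Against DVC and PB only it was 0.02 for Slc6a5, -0.27 for Dbh, -0.06 for Cx3cr1, -0.40 for Th, -0.08 for Slc18a2 and -0.24 for Gch1. Against NTS and PB only it was -0.07 for Dbh, 0.16 for Hoxb5, -0.10 for P2ry12, -0.04 for Cx3cr1, -0.33 for Th, -0.05 for Slc18a2 and -0.10 for Gch1. With median-ratio scaling it was 0.04 for Tmem119 and 0.03 for Sh2b1. With mitochondrial genes left out it was 0.01 for Tmem119. By edgeR it was 0.04 for Tmem119 and 0.04 for Glrb. By DESeq2 it was 0.04 for Tmem119 and 0.04 for Glrb. Against NTS and DVC only it was 0.04 for Tmem119, -0.08 for Slc6a9 and 0.11 for Ddc. With CBN replicate 1 and NTS replicate 1 left out it was 0.10 for Tmem119 and 0.08 for Ddc. With batch as a term it was -0.01 for Cx3cr1. With the 10 reference libraries as 1 group it was 0.00 for Slc6a9. With the replicate block it was -0.01 for Slc6a9. Leaving out 1 library at a time, sign changes occurred within -0.59 to 2.08 for Dbh, -0.09 to 0.20 for P2ry12, -0.13 to 0.09 for Tmem119, -0.01 to 0.04 for Cx3cr1, -0.05 to 0.37 for Cldn5, -0.02 to 0.03 for Slc6a9, -0.69 to 1.21 for Th, -0.95 to 0.09 for Ddc, -0.30 to 1.47 for Slc18a2 and -0.27 to 0.51 for Gch1. Of 139 named genes with a test, 105 were called, and 77 of these kept their call in all 30 other settings in which they were tested. The spread between replicates exceeded counting noise at this depth, with a chi-square per gene of 3.9 to 31.58, and values under 1 TPM rest on few reads.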

Other observations

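Further factors called higher in CBN were Barhl1, at 5.55, 6.91 and 8.45 TPM against 0.154 to 3.89 (median 1.84), and Pax6, at 26.2, 22.8 and 39.4 against 7.16 to 13.1 (median 9.91) (log2 differences 1.91 and 1.45); both act in the rhombic lip lineage. Gene levels correlated across genes between CBN libraries at 0.957 to 0.972, with NTS at 0.937 to 0.960, with DVC at 0.930 to 0.954 and with PB at 0.918 to 0.945; genes are not independent replicates. Calca, a peptide of the parabrachial nucleus, was at 2.22, 21.3 and 11.9 TPM in CBN and was not called (-1.11), and Isl1, of motor neurons, was at 0, 1.40 and 0.664 (-0.85).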
